A study of Mus musculus with 9 samples.

Results

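The levels of 39 genes for SR proteins, the kinases that phosphorylate them and other splicing regulators were followed in 9 bulk RNA-seq libraries made from the entire pancreas of mouse embryos at stage e18.5. The list holds 39 of the 55453 gene symbols in the count files. All 39 were found there, and all 39 passed the filter on low counts, as did 19166 genes in all. The list has no numeric threshold and was drawn up with earlier results of these libraries known. It is therefore treated as selected on the differences between the 3 groups, and the counts, changes and p-values below describe the genes and are not independent evidence about them.

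There were 3 libraries labelled Pdx1:Cre;Grg3Grg4, 3 labelled Pdx1:Cre;Grg3 and 3 labelled Pdx1:Cre, called Grg3 Grg4, Grg3 and control libraries here. All 9 came from embryos of a mixed C57BL6 strain that carried Pdx1:Cre. Pdx1 drives Cre in the pancreatic epithelial lineage, so mesenchyme, vessels, nerves and blood cells of the organ lie outside its reach. Grg3 and Grg4 are Groucho co-repressors encoded by Tle3 and Tle4. The labels do not describe the alleles, whether embryos were pooled or whether replicates were separate litters, so p-values measure only the spread between these libraries.

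SR proteins carry a domain rich in arginine and serine. They bind exonic sequences, help the spliceosome find splice sites, and move between nuclear speckles and nascent transcripts. Srpk kinases phosphorylate them mainly in the cytoplasm and Clk kinases in the nucleus, which sets where they sit and how active they are. Many of these genes regulate themselves through poison exons, whose inclusion sends the transcript to nonsense-mediated decay, or through introns that stay in the transcript and keep it in the nucleus.

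Gene counts summed to 46817453 to 62744499 per library. Tle3 was higher in the libraries named for it, at 135 ± 10.4 CPM in Grg3 Grg4 and 153 ± 12.1 CPM in Grg3 libraries, against 64.8 ± 2.5 CPM in control libraries (SD, n = 3 each), so every direction below holds between labels only. CPM are gene counts per 1e6 of TMM-scaled library size, so they need not sum to 1e6 in a library. Tle4 was at 11.6 ± 3.52 CPM in Grg3 Grg4, 12.2 ± 2.1 CPM in Grg3 and 7.77 ± 0.0855 CPM in control libraries and passed no test. By Xist and Y-linked genes, all 3 Grg3 Grg4 libraries were male, as were Grg3 replicate 1 and control replicate 1, and the other 4 were female.

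Transcripts of some cell types moved with the labels, and those of others did not. Summed over 28 acinar enzyme genes, which are made by the exocrine cells of the pancreas, the level was 259000 to 296000 CPM in Grg3 Grg4, 213000 to 404000 CPM in Grg3 and 397000 to 455000 CPM in control libraries, and no enzyme gene was at 0. The 24 endocrine genes summed to 2350 to 4870 CPM in Grg3 Grg4, 4260 to 6600 CPM in Grg3 and 6700 to 8080 CPM in control libraries. The 18 hepatocyte genes summed to 996 to 2260 CPM in Grg3 Grg4, 517 to 2050 CPM in Grg3 and 379 to 406 CPM in control libraries. The 17 muscle genes summed to 512, 3570 and 239 CPM in Grg3 Grg4, 369 to 990 CPM in Grg3 and 137 to 190 CPM in control libraries. The 14 mesenchyme genes overlapped between all groups, at 11300 to 11700, 10100 to 16000 and 11200 to 12800 CPM in that order. So did the 12 erythroid genes, at 1710 to 3440, 1940 to 3400 and 1680 to 2060 CPM. The 18 leukocyte genes summed to 127 to 283 CPM in Grg3 Grg4, 212 to 259 CPM in Grg3 and 142 to 181 CPM in control libraries. Of these lists, 1 gene, the muscle gene Tnnc2, was at 0 in a whole group, in Grg3 and in control libraries. In bulk tissue, fewer cells of a type and less RNA per cell cannot be told apart, and the part of these shifts in the values below was not tested. With the acinar enzyme genes left out before scaling, 9 of the 39 genes were called between Grg3 Grg4 and control libraries, as many as with them. That fit bears on the scaling only and takes no account of the share of any cell type.

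Promoter windows of 300 bases, 250 before and 50 after the start, were held by the RefSeq table (GRCm38.p6) for 36 of the 39 genes, and Clk1, Pnisr and Luc7l had no entry. The windows of 4 of the genes that rose in Grg3 Grg4 libraries are printed to show what kind of promoter these genes have: Leng8 at chr7:4136806-4137105 (plus strand), Pnn at chr12:59066669-59066968 (plus strand), Luc7l3 at chr11:94321914-94322213 (minus strand) and Srek1 at chr13:103774559-103774858 (minus strand). Capitals mark the GC box GGGCGG, the CCAAT box, the ETS core CCGGAA and the core of the cAMP response element TGACG, on either strand.
Leng8: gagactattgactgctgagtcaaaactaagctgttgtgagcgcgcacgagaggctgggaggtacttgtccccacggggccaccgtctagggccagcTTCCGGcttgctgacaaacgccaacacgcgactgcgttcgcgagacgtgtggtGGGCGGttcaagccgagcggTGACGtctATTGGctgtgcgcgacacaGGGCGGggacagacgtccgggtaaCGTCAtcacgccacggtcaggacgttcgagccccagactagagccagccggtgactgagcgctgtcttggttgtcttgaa
Pnn: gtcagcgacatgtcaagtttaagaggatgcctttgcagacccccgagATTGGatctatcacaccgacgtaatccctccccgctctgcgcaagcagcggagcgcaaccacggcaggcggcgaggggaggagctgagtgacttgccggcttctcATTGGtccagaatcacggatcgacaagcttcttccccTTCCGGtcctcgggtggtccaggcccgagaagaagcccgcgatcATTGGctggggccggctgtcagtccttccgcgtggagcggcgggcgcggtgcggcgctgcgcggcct
Luc7l3: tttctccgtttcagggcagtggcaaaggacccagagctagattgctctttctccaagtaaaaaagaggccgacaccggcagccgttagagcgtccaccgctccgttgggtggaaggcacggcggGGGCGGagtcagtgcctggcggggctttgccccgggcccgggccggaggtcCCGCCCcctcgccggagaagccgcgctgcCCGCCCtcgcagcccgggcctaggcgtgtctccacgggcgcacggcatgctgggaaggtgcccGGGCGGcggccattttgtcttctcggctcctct
Srek1: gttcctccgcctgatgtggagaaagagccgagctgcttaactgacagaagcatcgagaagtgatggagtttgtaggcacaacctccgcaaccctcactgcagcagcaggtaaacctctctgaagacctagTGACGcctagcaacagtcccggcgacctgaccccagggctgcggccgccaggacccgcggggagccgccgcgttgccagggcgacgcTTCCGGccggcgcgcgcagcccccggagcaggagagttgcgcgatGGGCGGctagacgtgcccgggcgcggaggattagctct

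These are mostly CpG-rich windows with short GC-rich words, and few of them hold a TATA box. The windows they are set against were taken whether or not the gene was expressed here. A comparison with other expressed genes was not made. The 36 windows held a median of 27.5 CpG, against 7 over all 32851 windows in the table. The GC box was in 66.7% of the 36 windows, against 35.7% of all windows. The ETS core was in 41.7%, against 14.9%, and the TGACG core in 50%, against 20.8%. The CCAAT box was in 47.2%, against 37.4%. The TATA box TATAAA was in 8.33%, against 13.6%, the E-box CACGTG in 2.78%, against 7.15%, and the forkhead core TGTTTAC in 2.78%, against 3.65%. Within the printed windows, Leng8 had all 4 marked words, Srek1 had 3 kinds, Pnn had 3 CCAAT boxes and 1 ETS core, and Luc7l3 had 4 GC boxes and none of the others. Marked words of different kinds overlapped once over the 36 windows. Rbm25, with 0 CpG and no marked word, Luc7l2, with 2 CpG, and Srpk2, with 7 CpG and no marked word, had windows poorer in CpG. Those windows lie inside the genes, away from the outermost start in GENCODE, so the promoters at that start were not examined. The Rbm25 window, for example, begins at chr12:83635460 and the gene at chr12:83631236. For 35 of the 36 windows the last bases lay within a GENCODE transcript of the gene on its strand. A match is a string of letters and not a binding site.

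The 39 genes were mostly higher in Grg3 Grg4 libraries, and the pattern was similar in all 3 of them. Their levels summed to 6050, 5860 and 6240 CPM in Grg3 Grg4 libraries, to 4240, 4380 and 4680 CPM in Grg3 libraries, and to 4820, 4550 and 5020 CPM in control libraries. The Grg3 Grg4 libraries did not overlap with either other group. Taking each gene relative to its own mean over the 9 libraries on the log2(CPM + 1) scale, 36, 38 and 37 of the 39 genes were above their mean in the 3 Grg3 Grg4 libraries, 6, 2 and 11 in the Grg3 libraries, and 11, 6 and 11 in the control libraries. The group means ran Grg3 Grg4 above control above Grg3 for 25 genes and Grg3 Grg4 above Grg3 above control for 11. The exceptions were Srsf9 and Srsf12, highest in Grg3 libraries, and Tra2b, highest in control libraries.

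**Figure D1:**
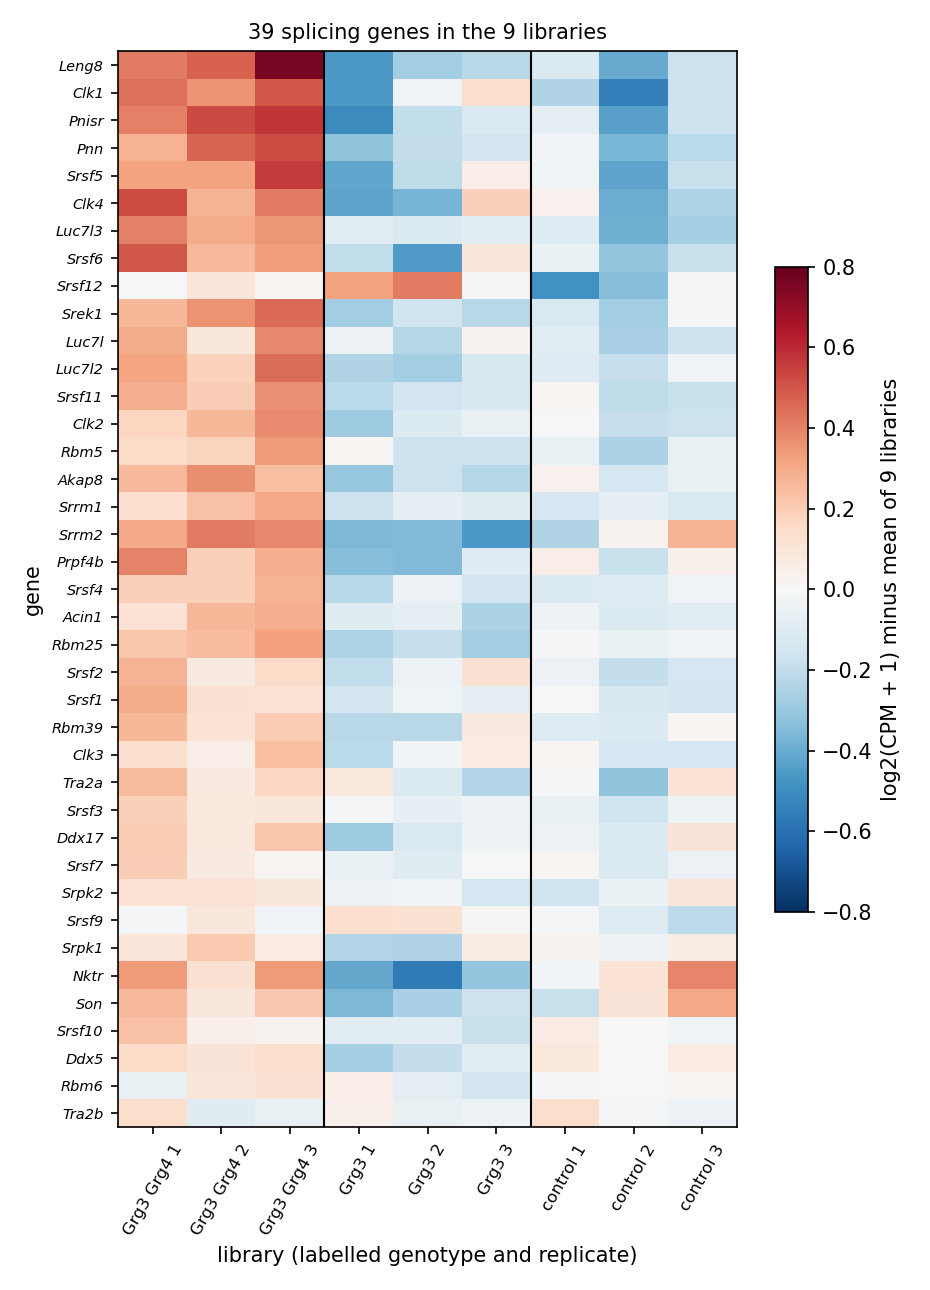
Heat map of the 39 splicing genes (rows, sorted by the change between Grg3 Grg4 and control) in the 9 libraries (columns, by labelled genotype). Colour is log2(CPM + 1) minus the gene's mean over the 9 libraries. The 3 Grg3 Grg4 columns are above the mean for 36, 38 and 37 of the 39 genes.

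Between Grg3 Grg4 and control libraries, 9 of the 39 genes rose and 0 fell at an adjusted p under 0.05 by edgeR's quasi-likelihood test, fitted over all genes. Over all 19166 genes tested, 1.24% rose and 0.897% fell. The median log2 change was 0.32 over the 39 genes and 0.01 over all genes tested, and 38 of the 39 changes were above 0. For 29 of the 39 genes the 3 Grg3 Grg4 libraries all lay above the 3 control libraries, against 14.9% of all genes, and for 0 they all lay below, against 14.2%. All 3 Grg3 Grg4 libraries lay above all 6 other libraries for 26 of the 39 genes, against 5.36% of genes tested. Because the genes were chosen with these libraries in view, no test is read from these counts.

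How many of the genes pass the threshold depended on the fit. The median stayed above 0 in every alternative fit, with 37 to 39 of the 39 changes above 0. With embryo sex as a term, 0 of the 39 genes were called and the median change was 0.33. With the share of reads that overlapped no counted feature as a term, 0 were called and the median was 0.2. Without control replicate 2 or without control replicate 3, 0 were called and the medians were 0.29 and 0.34. Without Grg3 Grg4 replicate 2 or without Grg3 Grg4 replicate 3, 2 were called, without control replicate 1 the count was 4, without Grg3 Grg4 replicate 1 it was 5, and without Grg3 replicate 2 it was 14. DESeq2's Wald test called 20 and limma's voom called 19. Calls over all genes tested moved with the fit too, from 238 higher and 172 lower in the main fit. They came to 30 with sex, 55 and 50 without control replicates 2 and 3, 1553 with DESeq2 and 1033 with voom.

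The SR proteins proper are the Srsf genes. All 11 were above 0 between Grg3 Grg4 and control libraries, with log2 changes of 0.09 to 0.61 and a median of 0.29, and 8 did not overlap. Srsf11, which binds RNA and is found at nuclear speckles, was the 1 that rose. Srsf11 was at 154, 144 and 162 CPM in Grg3 Grg4 libraries, against 127, 109 and 111 CPM in control libraries, a log2 change of 0.41 ± 0.09 (SE; edgeR adjusted p = 0.041). It was at 108, 113 and 115 CPM in Grg3 libraries, inside the control range except for replicate 1.

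Srsf5 and Srsf6 had larger changes than Srsf11 and a wider spread. Srsf5 was at 341, 342 and 403 CPM in Grg3 Grg4, 204, 237 and 283 CPM in Grg3 and 266, 203 and 241 CPM in control libraries. Its log2 change between Grg3 Grg4 and control was 0.61 ± 0.14 (SE; edgeR adjusted p = 0.0577). Srsf6 was at 371, 314 and 332 CPM in Grg3 Grg4, 229, 192 and 281 CPM in Grg3 and 253, 212 and 232 CPM in control libraries, a log2 change of 0.55 ± 0.14 (SE; edgeR adjusted p = 0.0729). For both genes all 3 Grg3 Grg4 libraries were above the other 6, but neither passed the threshold.

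The best-studied SR protein genes had smaller changes. Srsf1, a splicing activator and proto-oncogene product, averaged 180 ± 13 CPM in Grg3 Grg4 and 149 ± 8.65 CPM in control libraries. Srsf2, which binds exonic enhancers and works at speckles, averaged 121 ± 8.16 CPM in Grg3 Grg4 and 98.6 ± 4.7 CPM in control libraries. Srsf3, which also couples splicing to mRNA export, averaged 127 ± 5.5 CPM in Grg3 Grg4 and 110 ± 4.91 CPM in control libraries (SD, n = 3 each). Their log2 changes of 0.28, 0.29 and 0.21 were not called, and none of the 3 genes overlapped between the groups.

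Srsf4 averaged 17.8 ± 0.62 CPM in Grg3 Grg4 and 14.2 ± 0.388 CPM in control libraries, without overlap. The exons of Srsf4 overlap another gene over 43% of their length and those of Srsf2 over 25.3%, so reads there may be set aside as ambiguous or, without strand, be shared, and both levels are uncertain. Srsf7, Srsf9 and Srsf10 overlapped between the groups, with log2 changes of 0.15, 0.13 and 0.09. Srsf12, which is known as a splicing repressor, was at 1.62, 1.81 and 1.67 CPM in Grg3 Grg4, 2.28, 2.48 and 1.6 CPM in Grg3 and 0.877, 1.07 and 1.61 CPM in control libraries. It had the lowest level of the 39 genes and its changes carried the widest errors, 0.52 ± 0.29 and 0.84 ± 0.29 (SE) against control.

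Among the 7 kinase genes, all 7 changes between Grg3 Grg4 and control libraries were above 0, from 0.11 to 0.75, 6 did not overlap and 1 rose. That gene was Clk1, whose kinase phosphorylates SR proteins in the nucleus and whose own transcripts are known to keep introns. Clk1 was at 107, 101 and 111 CPM in Grg3 Grg4 libraries, 56.8, 76.9 and 86.3 CPM in Grg3 libraries and 66.3, 53.4 and 69.8 CPM in control libraries. The Grg3 Grg4 libraries were above the other 6, and the Grg3 libraries were spread wider than the controls and overlapped them. The log2 change against control was 0.75 ± 0.15 (SE; edgeR adjusted p = 0.0358) for Grg3 Grg4 libraries.

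Clk4, the nearest relative of Clk1, was at 62.3, 52.4 and 58 CPM in Grg3 Grg4, 32, 33.2 and 49.3 CPM in Grg3 and 44.2, 32.6 and 36.2 CPM in control libraries. Its log2 change of 0.61 ± 0.17 (SE) against control had an edgeR adjusted p of 0.0894. Clk2 averaged 61.7 ± 4.53 CPM in Grg3 Grg4 and 46.8 ± 3.49 CPM in control libraries, with an edgeR adjusted p of 0.0552. Clk3 had the smallest change of the 4 Clk genes, 0.23 ± 0.09 (SE), and averaged 43.1 ± 2.95 CPM in Grg3 Grg4 and 36.6 ± 2.37 CPM in control libraries. None of the 4 Clk genes overlapped between Grg3 Grg4 and control libraries.

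The Srpk kinases had smaller changes. Srpk1 averaged 82.3 ± 4.43 CPM in Grg3 Grg4 and 76.2 ± 2.83 CPM in control libraries, and Srpk2 averaged 40.6 ± 0.447 CPM in Grg3 Grg4 and 36.7 ± 3.38 CPM in control libraries. Their log2 changes were 0.11 ± 0.09 and 0.15 ± 0.08 (SE). Whether the Clk and Srpk genes differ in response was not tested. Prpf4b, a kinase of the spliceosome, averaged 116 ± 8.47 CPM in Grg3 Grg4, 78.6 ± 8.04 CPM in Grg3 and 93 ± 8.4 CPM in control libraries, not called in any comparison.

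The SR-related and speckle proteins had 4 of the 9 calls. Leng8, a relative of mRNA export scaffold proteins, had the largest change of the 39 genes between Grg3 Grg4 and control libraries. It was at 283, 295 and 359 CPM in Grg3 Grg4, 154, 175 and 182 CPM in Grg3 and 196, 160 and 188 CPM in control libraries. The log2 change against control was 0.78 ± 0.12 (SE; edgeR adjusted p = 0.0155), and the lowest Grg3 Grg4 library stood above the highest of the other 6.

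Pnn encodes pinin, an SR-rich protein that joins the exon junction complex, and Pnisr encodes a pinin partner. Pnn was at 114, 130 and 135 CPM in Grg3 Grg4, 74.6, 81.9 and 84.3 CPM in Grg3 and 92.2, 72.4 and 80.7 CPM in control libraries, a log2 change of 0.63 ± 0.11 against control (SE; edgeR adjusted p = 0.0207). Pnisr was at 122, 133 and 137 CPM in Grg3 Grg4, 64.3, 80.2 and 84.6 CPM in Grg3 and 87.2, 67.7 and 81.8 CPM in control libraries, a log2 change of 0.73 ± 0.12 (SE; edgeR adjusted p = 0.0213). In both genes the Grg3 and control libraries overlapped and the Grg3 Grg4 libraries stood above them.

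Srek1, which regulates splice site choice together with SR proteins, was at 61.8, 65.8 and 70.3 CPM in Grg3 Grg4, 42, 45.8 and 43.7 CPM in Grg3 and 46.9, 42.1 and 50.5 CPM in control libraries. Its log2 change against control was 0.5 ± 0.09 (SE; edgeR adjusted p = 0.0211). Again the Grg3 Grg4 libraries lay above all others, and the Grg3 libraries lay close to the controls.

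For Srrm2, a large scaffold protein of speckles, the Grg3 Grg4 libraries also lay above all others, and for Son they did not. Srrm2, which with Son forms the core of nuclear speckles, was at 575, 623 and 610 CPM in Grg3 Grg4, 364, 365 and 339 CPM in Grg3 and 394, 476 and 564 CPM in control libraries. The control libraries were widely spread, and the Grg3 libraries all lay below them. Son was at 294, 262 and 285 CPM in Grg3 Grg4, 191, 205 and 218 CPM in Grg3 and 217, 264 and 305 CPM in control libraries, so that Grg3 Grg4 and control overlapped. Against control, the log2 changes were 0.34 ± 0.13 for Srrm2 and 0.1 ± 0.12 for Son (SE) in Grg3 Grg4 libraries, neither called.

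Srrm1, a splicing coactivator, averaged 198 ± 11.9 CPM in Grg3 Grg4 and 157 ± 3.18 CPM in control libraries, with an edgeR adjusted p of 0.0541. Acin1, an accessory factor of the exon junction complex, averaged 172 ± 11.1 CPM in Grg3 Grg4 and 139 ± 3.71 CPM in control libraries, with an edgeR adjusted p of 0.0821. Both were free of overlap and uncalled.

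The 3 Luc7-like genes, relatives of a yeast component of the U1 snRNP, had log2 changes of 0.43 to 0.61 between Grg3 Grg4 and control libraries, with no overlap in any of the 3. Luc7l3 had the smallest adjusted p of the 39 genes. It was at 116, 108 and 112 CPM in Grg3 Grg4, 82.2, 80.9 and 82.5 CPM in Grg3 and 81.5, 66.5 and 72.8 CPM in control libraries, a log2 change of 0.61 ± 0.08 against control (SE; edgeR adjusted p = 0.00994). Luc7l2 was at 149, 136 and 163 CPM in Grg3 Grg4, 101, 98.8 and 109 CPM in Grg3 and 111, 105 and 117 CPM in control libraries, a log2 change of 0.43 ± 0.09 (SE; edgeR adjusted p = 0.0411). Luc7l2 exons overlap another gene over 18.9% of their length. Luc7l averaged 86.9 ± 8.99 CPM in Grg3 Grg4 and 64.1 ± 3.79 CPM in control libraries, and its edgeR adjusted p was 0.0541.

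Of the 4 RNA-binding motif genes, none was called against control. Rbm25, which binds U1-associated factors, was at 118, 120 and 127 CPM in Grg3 Grg4, 85.1, 88.7 and 83.6 CPM in Grg3 and 100, 97.4 and 98.5 CPM in control libraries, so the 3 groups were fully separate. Its log2 change between Grg3 Grg4 and control was 0.3 ± 0.07 (SE; edgeR adjusted p = 0.0541). Rbm39, a relative of the U2AF splice site factor, averaged 231 ± 12.6 CPM in Grg3 Grg4 and 193 ± 9.91 CPM in control libraries. Rbm5, known for regulating splicing of apoptosis genes, averaged 131 ± 9.45 CPM in Grg3 Grg4 and 103 ± 7.97 CPM in control libraries, and neither gene overlapped. Rbm6 overlapped, with a log2 change of 0.05 ± 0.08 (SE).

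Akap8, a nuclear anchoring protein that also binds RNA, was at 82.2, 88.6 and 81 CPM in Grg3 Grg4, 55.3, 60.5 and 58.2 CPM in Grg3 and 70.1, 61.8 and 65.5 CPM in control libraries, 3 groups without overlap. Its log2 change against control was 0.35 ± 0.08 (SE; edgeR adjusted p = 0.0472), the smallest of the 9 calls. The RNA helicase Ddx5 was at 487, 470 and 482 CPM in Grg3 Grg4, 361, 382 and 412 CPM in Grg3 and 463, 437 and 458 CPM in control libraries. Its groups did not overlap, but the log2 change against control was 0.08 ± 0.09 (SE). Ddx17, its paralog, overlapped between Grg3 Grg4 and control libraries, with a log2 change of 0.18 ± 0.1.

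The transformer genes, whose products activate exons together with SR proteins, had the lowest median change by role, 0.1. Tra2b was at 82.4, 69.9 and 71.8 CPM in Grg3 Grg4, 76.8, 71.7 and 72.6 CPM in Grg3 and 82.5, 74 and 72.3 CPM in control libraries, with full overlap and a log2 change of -0.03 ± 0.09 (SE). Tra2a averaged 51.8 ± 3.3 CPM in Grg3 Grg4 and 44 ± 6.7 CPM in control libraries, also with overlap.

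**Figure D2:**
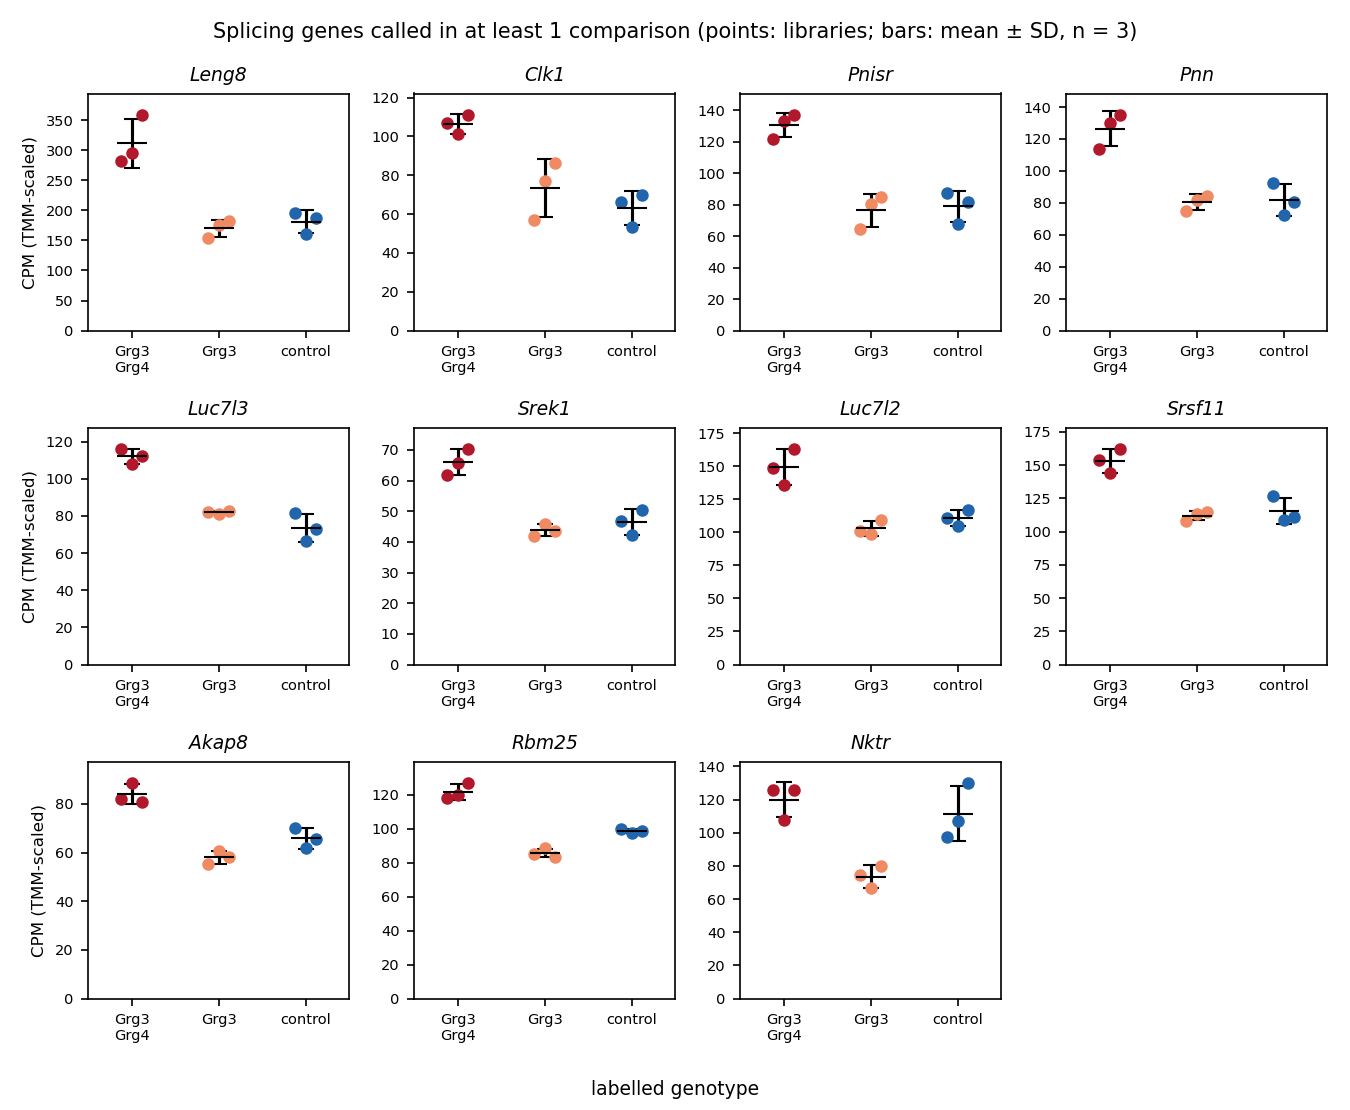
Level in CPM (vertical axes, starting at 0) of the 11 splicing genes called in at least 1 of the 3 comparisons, by labelled genotype, with points for libraries and bars for mean ± SD (n = 3). Except for Nktr, the 3 Grg3 Grg4 points lie above all 6 others; Leng8 reaches 359 CPM there.

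Between Grg3 and control libraries the same genes showed no common rise. At the same threshold, 0 of the 39 rose and 1 fell, against 0.704% and 0.694% of all genes tested. The median log2 change was -0.05 over the 39 genes and 0.02 over all genes, and 13 changes were above 0. Only Srsf9 lay above all controls in all 3 Grg3 libraries, against 12.6% of all genes, and 6 genes lay below (Srsf10, Srrm2, Rbm25, Akap8, Ddx5 and Nktr), against 12% of all genes. The 2 comparisons share the 3 control libraries, so their values are set side by side only.

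The gene that fell was Nktr, which encodes a cyclophilin with an RS-rich region. Nktr was at 126, 108 and 126 CPM in Grg3 Grg4 libraries, 74.3, 66.5 and 79.9 CPM in Grg3 libraries and 97.5, 107 and 130 CPM in control libraries. The log2 change between Grg3 and control libraries was -0.6 ± 0.12 (SE; edgeR adjusted p = 0.045). Nktr exons overlap another gene over 10.3% of their length. The log2 change ran from -0.68 to -0.47 over 19 alternative fits, and the call held in 9 of them. It ended in the fits with sex, with the unassigned share or with only the 6 libraries, and without control replicate 2 or 3, any 1 of the 3 Grg3 libraries, or Grg3 Grg4 replicate 1 or 3.

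After Nktr, the lowest log2 changes between Grg3 and control libraries were -0.42 ± 0.13 for Srrm2 and -0.36 ± 0.12 for Son (SE), with edgeR adjusted p of 0.119 and 0.159. The highest were 0.84 ± 0.29 for Srsf12, 0.22 ± 0.15 for Clk1 and 0.2 ± 0.08 for Srsf9, none called. Srsf9 was at 47.9, 51.4 and 47.4 CPM in Grg3 Grg4, 53, 52.6 and 48.6 CPM in Grg3 and 47.8, 44.8 and 41.5 CPM in control libraries. For Nktr, Srrm2 and Son the same control library, replicate 1, was the lowest control and replicate 3 the highest.

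**Figure D3:**
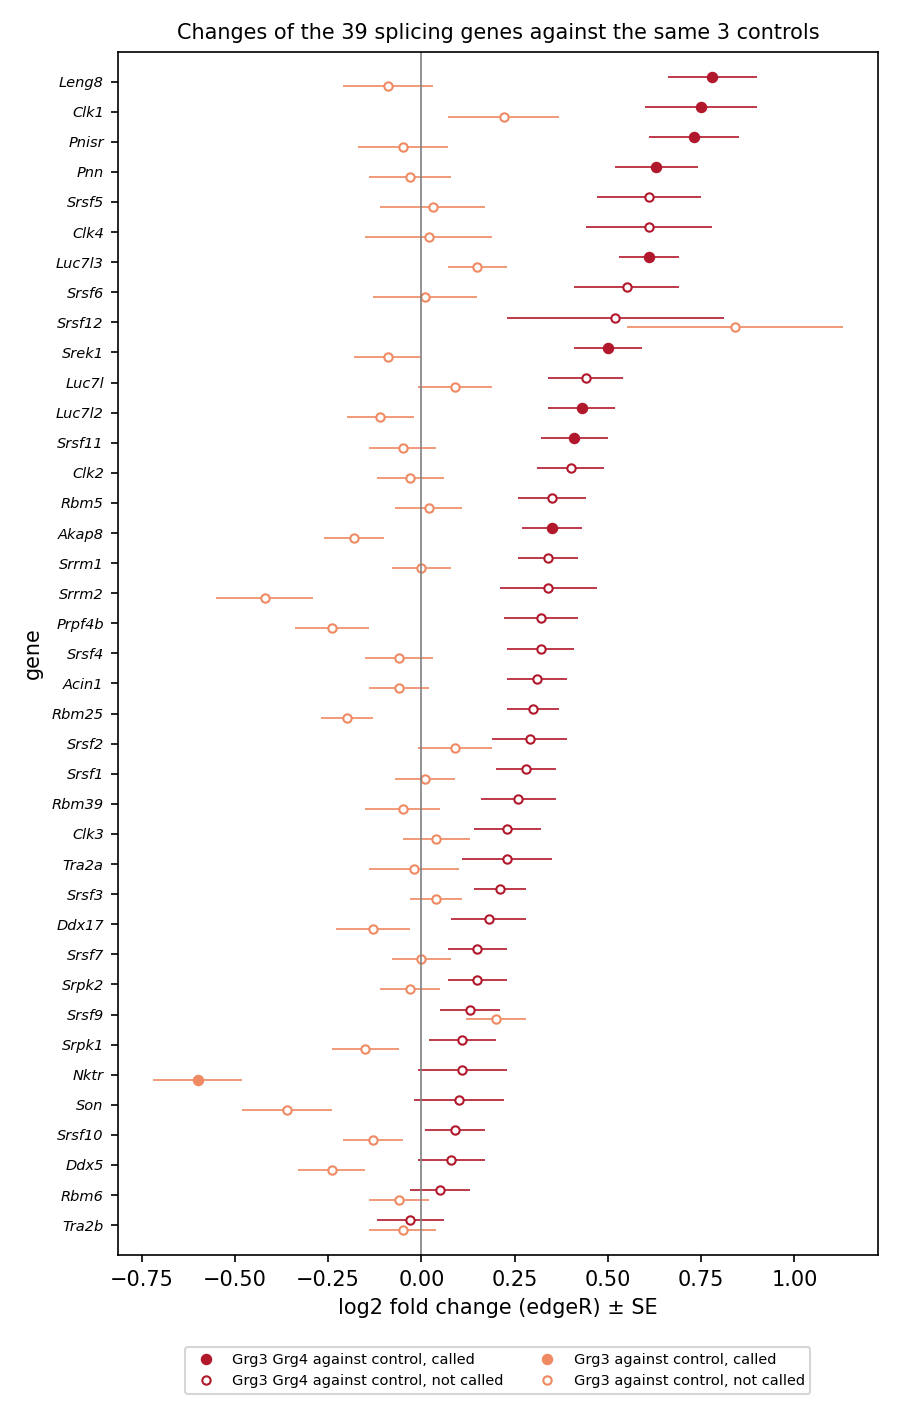
Log2 fold change (horizontal axis, points with SE from edgeR) of the 39 splicing genes in Grg3 Grg4 (dark red, upper) and Grg3 libraries (orange, lower) against the same 3 control libraries, with filled points for called genes. In Grg3 Grg4 libraries 38 of 39 points lie above 0, and in Grg3 libraries 13 of 39.

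The direct comparison of Grg3 Grg4 with Grg3 libraries, which uses no control library for its means, gave 5 rises and 0 falls among the 39 genes, against 0.13% and 0.0574% of all genes tested. Only 36 genes were called in this comparison over the whole table, and 5 of them were Rbm25, Leng8, Akap8, Srek1 and Pnisr. The median log2 change was 0.37 over the 39 genes and 0 over all genes. For 32 of the 39 genes all Grg3 Grg4 libraries lay above all Grg3 libraries, against 11.8% of all genes, and for 0 below, against 9.3%. The count was 26 of 1019 genes called with DESeq2's Wald test, 12 of 228 with no filter and 3 of 24 with limma's voom. It was 0 when only these 6 libraries were fitted and 0 with sex as a term, where the medians were 0.38 and 0.39, and 0 with the unassigned share as a term, where the median was 0.2. It was also 0 when control replicate 2, control replicate 3, Grg3 replicate 1, Grg3 replicate 3 or any 1 Grg3 Grg4 library was left out.

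The changes of the 5 genes were 0.88 ± 0.12 for Leng8 (edgeR adjusted p = 0.0304), 0.77 ± 0.12 for Pnisr (0.0499), 0.59 ± 0.09 for Srek1 (0.0325), 0.53 ± 0.08 for Akap8 (0.0311) and 0.5 ± 0.07 for Rbm25 (0.0294), on the log2 scale with SE and edgeR adjusted p in brackets. Srrm2 and Nktr had changes as large, 0.76 ± 0.13 and 0.7 ± 0.12, and were not called, with edgeR adjusted p of 0.0518 and 0.0526. By role, the 9 SR-related and speckle genes had the highest median, 0.66, with 9 of 9 free of overlap, and the 11 Srsf genes had a median of 0.22, with 8 of 11 free of overlap. The lowest log2 changes were -0.32 ± 0.28 for Srsf12, -0.07 ± 0.08 for Srsf9 and 0.02 ± 0.09 for Tra2b.

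Leng8, Pnisr, Srek1 and Akap8 were higher in Grg3 Grg4 libraries than in both other groups by the test. They were 4 of 16 genes with that pattern in the whole table. Among the other 12, the splicing-related genes Prpf39, Clasrp and Safb2 and the small RNA host gene Snhg17 are named after their values were seen.

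HTSeq keeps a row for reads that overlap no counted feature. By its default features are exons, so that reads from introns and from outside genes fall there, but the sources used here do not give the setting. That row held 3.86%, 4.07% and 4.42% of reads in Grg3 Grg4 libraries, 2.45%, 3.02% and 2.55% in Grg3 libraries and 3.02%, 2.58% and 3.09% in control libraries. The 3 Grg3 Grg4 libraries were above the other 6, and the Grg3 and control libraries overlapped. The mean was 4.12 ± 0.28% in Grg3 Grg4, 2.67 ± 0.303% in Grg3 and 2.9 ± 0.273% in control libraries (SD, n = 3 each). Grg3 Grg4 exceeded control by 1.22 percentage points and Grg3 by 1.44 points (2-sided exact permutation p = 0.1 each, the smallest that 3 against 3 libraries allow). Grg3 differed from control by -0.224 points (exact permutation p = 0.2).

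The libraries with the highest unassigned share were thus also those with the highest summed level of the 39 genes. Within the control libraries the order was kept. Control replicate 2 had 2.58% and 4550 CPM, replicate 1 had 3.02% and 4820 CPM, and replicate 3 had 3.09% and 5020 CPM. Within the Grg3 Grg4 and the Grg3 libraries the order was not kept. Among Grg3 Grg4 libraries, replicate 3 had 4.42% and 6240 CPM, but replicate 1 had 3.86% and 6050 CPM and replicate 2 had 4.07% and 5860 CPM. Among Grg3 libraries, replicate 2 had 3.02% and 4380 CPM, and replicate 3 had 2.55% and 4680 CPM. The 9 libraries fall into 2 separate clusters, so no correlation is given. With the share as a numeric term in the fit, the median change of the 39 genes between Grg3 Grg4 and control libraries was 0.2, and 37 were above 0, but 2 genes were called in the whole table, against 238 higher and 172 lower without the term. The share and the label cannot be told apart in this design.

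**Figure D4:**
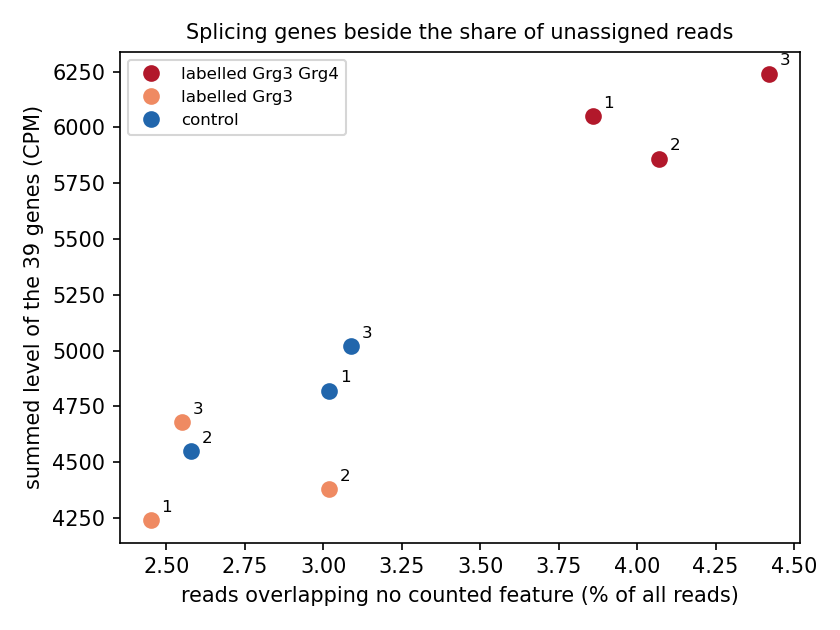
Summed level of the 39 splicing genes in CPM (vertical axis, not starting at 0) against the percent of reads that overlapped no counted feature (horizontal axis), 1 point per library with its replicate number. The Grg3 Grg4 libraries sit at 3.86% to 4.42% and 5860 to 6240 CPM, apart from the other 6.

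The gene models are given beside that share, and a link between the 2 was not tested. In GENCODE M21, 32 of the 39 genes (82.1%) have both an annotated nonsense-mediated decay transcript and a retained-intron transcript, against 20.3% of 15352 protein-coding genes tested. The median number of annotated transcripts was 10 in the 39 genes and 5 in the protein-coding genes tested. Clk1 has 2 decay and 7 retained-intron transcripts, and Srsf11 has 3 and 11. Between Grg3 Grg4 and control libraries, protein-coding genes tested had a median log2 change of 0.05 with both classes. It was 0.00 with 1 of the classes and -0.04 with neither. The medians of the listed genes were 0.32 for the 32 with both, 0.52 for the 4 with 1 of the classes and 0.18 for the 3 with neither. The deposited counts are per gene, so they do not show which of these transcripts changed.

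Per kilobase of annotated exon, Srsf5 had the highest level of the 39 genes in Grg3 Grg4 libraries, at 90.7 ± 8.91 CPM per kb, against 59.3 ± 7.91 CPM per kb in control libraries. Ddx5 came next, at 83.1 ± 1.49 CPM per kb in Grg3 Grg4 and 78.4 ± 2.42 CPM per kb in control libraries, so it ranked below Srsf5 in Grg3 Grg4 libraries, by less than the SD of Srsf5, and above it in control libraries. Srsf6 was at 70.5 ± 6.04 CPM per kb in Grg3 Grg4 and 48.2 ± 4.25 CPM per kb in control libraries. At the low end, Srsf12 was at 0.54 ± 0.0305 CPM per kb in Grg3 Grg4 and 0.376 ± 0.12 CPM per kb in control libraries. Srpk2 was at 2.92 ± 0.0322 CPM per kb in Grg3 Grg4 and 2.64 ± 0.243 CPM per kb in control libraries, and Rbm6 was at 4.07 ± 0.263 CPM per kb in Grg3 Grg4 and 3.93 ± 0.0513 CPM per kb in control libraries (SD, n = 3 each).

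The 39 genes were set beside 6 further lists of 176 genes, 173 of them tested, none shared with the 39. The lists hold other splicing factors, nonsense-mediated decay and mRNA export factors, and nuclear-retained and small RNA host transcripts. The last are not splicing machinery. Between Grg3 Grg4 and control libraries 15 of the 173 rose and 0 fell, against 1.24% and 0.897% of all genes tested. Between Grg3 and control libraries 4 rose and 0 fell, against 0.704% and 0.694%. Between Grg3 Grg4 and Grg3 libraries 2 rose and 0 fell, against 0.13% and 0.0574%. The first count was 29 with DESeq2's Wald test, 1 with sex as a term, 0 with the unassigned share as a term, and 1 without control replicate 2 or 3. In the main fit and the same order of comparisons, the 25 tested nuclear-retained and host transcripts gave 5, 2 and 1 of the rises.

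Core spliceosome genes had lower medians than the 39 genes. The 26 tested genes for snRNPs and splice site recognition had a median log2 change of 0.11 between Grg3 Grg4 and control libraries, and Snrnp70, the U1 snRNP protein that SR proteins contact, was the 1 that rose. Snrnp70 was at 404, 389 and 482 CPM in Grg3 Grg4, 303, 303 and 296 CPM in Grg3 and 304, 261 and 293 CPM in control libraries, a log2 change of 0.57 ± 0.11 (SE; edgeR adjusted p = 0.029). The 38 genes listed under the tri-snRNP and catalytic spliceosome had a median of 0.06. The 1 that rose was Prpf39, a U1-associated factor and so not of the tri-snRNP itself. It was at 35.6 ± 3.84 CPM in Grg3 Grg4, against 25.7 ± 1.93 CPM in control libraries.

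The 27 hnRNP genes had a median of 0.15, and Tardbp and Hnrnpdl were among those that rose. Tardbp averaged 154 ± 6.18 CPM in Grg3 Grg4 and 115 ± 5.74 CPM in control libraries. Hnrnpdl averaged 159 ± 6.83 CPM in Grg3 Grg4 and 120 ± 10.7 CPM in control libraries (SD, n = 3 each). Both are abundant nuclear RNA-binding proteins. The 33 genes listed as tissue-restricted regulators had a median of 0.04, and 3 rose. Whether each of them is restricted to a tissue was not examined. Ptbp2, a neuronal relative of the polypyrimidine tract binding protein, averaged 20.6 ± 1.12 CPM in Grg3 Grg4 and 11.7 ± 0.91 CPM in control libraries. Srrm4, the activator of neural microexons, averaged 3.78 ± 0.982 CPM in Grg3 Grg4 and 1.48 ± 0.259 CPM in control libraries. Tia1, which binds U-rich introns, averaged 45.9 ± 1.58 CPM in Grg3 Grg4 and 31.1 ± 3.84 CPM in control libraries. Srrm4 was also high in Grg3 libraries, at 2.89, 4.15 and 3.32 CPM, without a call there.

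In the list for exon junctions and nonsense-mediated decay, the median was 0.11 over 24 genes. Ddx39b, an mRNA export helicase, averaged 232 ± 7.35 CPM in Grg3 Grg4, 216 ± 7.22 CPM in Grg3 and 162 ± 8.77 CPM in control libraries, and it rose in both comparisons against control, as 0 of the 39 genes did. Thoc1, a subunit of the THO export complex, rose to 17 ± 1.12 CPM in Grg3 Grg4 libraries, against 12.2 ± 0.398 CPM in control libraries.

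Of the 6 further lists, only nuclear-retained and small RNA host transcripts reached the median of the 39 genes between Grg3 Grg4 and control libraries. The list's median there was 0.39 over 25 genes tested. Between Grg3 Grg4 and Grg3 libraries its median was 0.2, against 0.37 for the 39 genes. Its levels summed to 2920, 2660 and 3450 CPM in Grg3 Grg4, 1950, 2110 and 2340 CPM in Grg3 and 2180, 2130 and 2650 CPM in control libraries. Miat, Snhg17, Snhg20, Gas5 and Mirg rose. For Miat, Snhg20 and Gas5, the Grg3 libraries also all lay above the control libraries. Gas5, for example, was at 114, 103 and 119 CPM in Grg3 and 90.2, 78.9 and 81.1 CPM in control libraries. Malat1 averaged 218 ± 13.3 CPM in Grg3 Grg4 and 371 ± 212 CPM in control libraries, a log2 change of -0.77 ± 0.35 (SE) that was not called. Snhg17, a small nucleolar RNA host gene, was at 45.3, 48.4 and 54.3 CPM in Grg3 Grg4, 30.5, 27.4 and 34.9 CPM in Grg3 and 30, 26.7 and 29.1 CPM in control libraries, so that all 3 Grg3 Grg4 libraries lay above the other 6, as for Leng8 and Pnn. Miat, a long noncoding RNA of the nucleus, averaged 22.7 ± 4.99 CPM in Grg3 Grg4 and 7.89 ± 0.902 CPM in control libraries. Between Grg3 and control libraries the calls were Snrpg, Ddx39b, Zfas1 and Snhg20, and none of these is among the 39 genes.

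**Figure D5:**
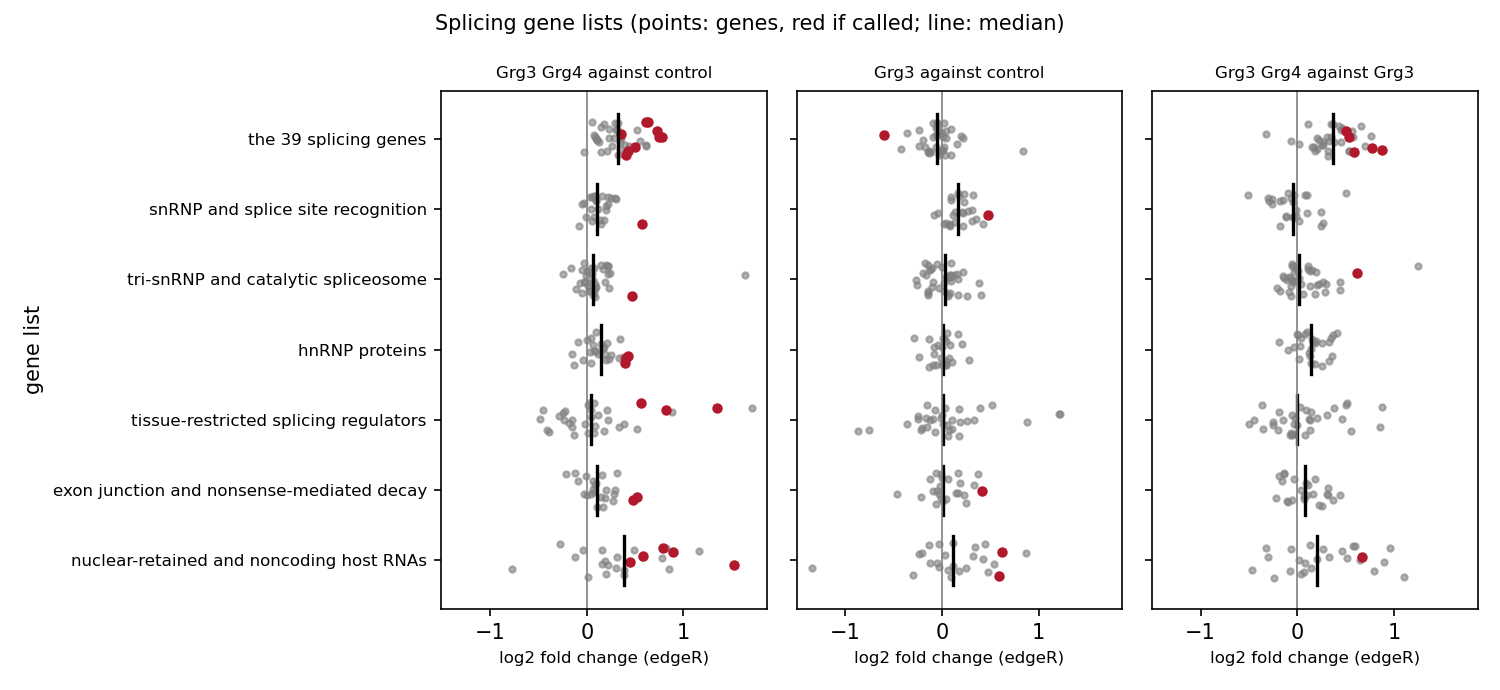
Log2 fold changes (horizontal axes) of the 39 splicing genes (top row) and of 6 further lists in the 3 comparisons (panels). Red points are called genes, and a line marks each list's median. The median of the 39 genes is 0.32, -0.05 and 0.37 in the 3 panels.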

How the data were processed

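The files that the authors deposited hold unnormalized read counts for each gene symbol, a file for each library, laid out as by HTSeq. Per the submitters' processing notes, the tools were HISAT2, HTSeq, DESeq2, Trim Galore, FastQC and bedtools, with builds GRCm38 and mm10. The sources used here give no versions, annotation or strand setting. The 5 rows that name no gene held 28.5% to 33.2% of reads and stayed out of library sizes and tests. Replicates differed by more than counting noise (chi-square per degree of freedom 18.6 to 216), so none was the same library deposited again, and whether libraries share an embryo or pool is not known.

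The deposited counts of all 9 libraries entered 1 fit of edgeR 4.0.16 (R 4.3.3), with TMM scaling, filterByExpr (minimum count 10, minimum total 15), a mean per group and no covariate. The quasi-likelihood F test was 2-sided, with Benjamini-Hochberg adjustment over 19166 genes and a call at an adjusted p under 0.05. SE is the log2 change divided by the square root of F. The fit was tested on simulated data. Alternatives used DESeq2 1.42.0 and limma 3.58.1, other filters, terms and sample sets, all listed beside the results.

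The 39 genes, the further lists and the roles were chosen with earlier results of these data known. Named genes were those called, those with the 3 highest and 3 lowest changes, and those without overlap between Grg3 Grg4 and control libraries. The extremes of level per exon length and the smallest p of each further list were added. Of the further lists the text names a selection of those called, and Malat1, which was picked after its values were seen. Positions, overlaps and transcript classes are from GENCODE M21 (GRCm38), which matched 99.1% of genes tested. The authors may have counted with another annotation.

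No pairing by replicate number was seen: deviations of same-numbered libraries correlated at -0.08 to 0.12, and 2 of 9 libraries correlated best with their own number. With so few libraries a group, this cannot decide whether equal numbers share a litter or batch.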

Additional observations from a re-analysis of the deposited data

Results flagged for a closer look

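For 5 of the 39 genes the change against control differed between Grg3 Grg4 and Grg3 libraries by the test of that difference, which is the direct comparison of both groups in the edgeR fit. The difference on the log2 scale was 0.88 for Leng8, 0.77 for Pnisr, 0.59 for Srek1, 0.53 for Akap8 and 0.5 for Rbm25, each higher in 3 of 3 Grg3 Grg4 libraries than in any Grg3 library. The genes were chosen with these libraries in view. The call held in 8 of 19 alternative fits for Leng8, Akap8 and Rbm25, in 6 for Srek1 and in 4 for Pnisr, and the difference stayed above 0 in all 19 for these 5 genes.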

How the results depend on the processing

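The directions of the called genes held in every alternative fit, and many calls did not. Counts of the 39 genes called are given for Grg3 Grg4 against control (9), Grg3 against control (1) and Grg3 Grg4 against Grg3 (5), in that order, where they moved by over 1.5 times. DESeq2's Wald test gave 20, 4 and 26. The fits of only the 6 libraries compared gave 17, 0 and 0. With sex as a term and with the unassigned share as a term the counts were 0, 0 and 0. No filter gave 14 and the stricter filter (1 CPM in 3 libraries) 14 between Grg3 Grg4 and control, and 12 and 10 between Grg3 Grg4 and Grg3, where voom gave 3, against 19 between Grg3 Grg4 and control. Leaving out 1 library gave 0 to 14, 0 to 1 and 0 to 5. The counts over all genes tested moved as well, given in the same order. DESeq2's Wald test called 1553, 1463 and 1019 genes, voom 1033, 421 and 24, and the 6 libraries 750, 255 and 10. Sex left 30, 169 and 4, and the unassigned share 2, 124 and 0. No filter gave 930, 586 and 228, and the stricter filter 476, 300 and 75. For the further lists (15, 4 and 2), DESeq2 gave 29, 18 and 28, and voom 24, 8 and 0. Sex gave 1, 1 and 0, and the unassigned share 0, 1 and 0. In both comparisons with Grg3 libraries, no filter gave 10 and 6 and the 6 libraries alone 2 and 0, and size factors gave 0 between Grg3 Grg4 and Grg3. Leaving out 1 library gave 1 to 20, 0 to 4 and 0 to 1. The cause was not tested.

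With the replicate block, whose numbers showed no pairing of the libraries, the 39 genes gave 8, 1 and 0 calls. The further lists gave 1 between Grg3 and control and 0 between Grg3 Grg4 and Grg3. The block left the difference in unassigned share at 1.22 points. Leaving out 1 library gave 1.06 to 1.35 points for Grg3 Grg4 against control, -0.396 to -0.113 for Grg3 against control and 1.29 to 1.62 for Grg3 Grg4 against Grg3. Among single genes in single fits, 1942 results kept their direction and side of the threshold, 137 lost a call, 86 gained one, 58 uncalled values changed sign and none with a call did. With 3 libraries a group, the calls among the 39 genes had adjusted p of 0.00994 to 0.0499 (edgeR), near the threshold.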
